A study of Mus musculus with 14 samples.

Results

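Retinal Müller glia were the 3070 nuclei that the authors had labeled MG in 11 mouse retina libraries, out of 77572 labeled retinal nuclei in those libraries. They were taken by that label alone, and libraries with fewer than 100 such nuclei were left out. This removed 1 library, the *Tgfbr1* knockout replicate 4 (CKO4), with 2 MG nuclei among its 104 nuclei, so that 3070 of all 3072 MG nuclei were used. The description covers their identity genes and their stress response, per library.

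Müller glia are the radial glia that span the whole thickness of the retina. They take up and recycle glutamate, buffer potassium and water, return retinoid to cones, and secrete growth factors such as VEGF-A onto the retinal vessels. When the retina is injured or starved of oxygen they enter reactive gliosis, a state known for intermediate filaments such as GFAP and vimentin, for JAK-STAT3 signaling, and for acute phase and hypoxia genes.

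The samples were nuclei of whole retinas at postnatal day 14 by the study's account (the deposited text speaks of young adults), measured by PIPseq snRNAseq, in which each transcript is counted once by its unique molecular identifier (UMI). The control was 1 library labeled WT, with no allele stated for it. Elsewhere the study describes its controls as WT in phenotype, typically with *Cdh5CreER* and 1 conditional allele of *Tgfbr1* or *Tgfbr2* beside a normal one. The other 10 libraries (CKO) came from *Cdh5CreER;Tgfbr1 CKO/-* mice, with 1 conditional and 1 null allele of the TGF-beta receptor gene *Tgfbr1* and a Cre that the VE-cadherin promoter drives in endothelial cells after 4-hydroxytamoxifen (4HT), given from postnatal day 3 to day 5. The null allele is carried by every cell of these mice, Müller glia included, and the sources used did not give the number of mice per library or whether the control received 4HT. The WT library and CKO1, CKO2 and CKO3 formed batch 1, CKO5 was in batch 2, and CKO6 to CKO11 formed batch 3. CKO8 to CKO11 were made with the v5.0 kit and all others with the v4.0 PLUS kit.

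The WT library held 402 MG nuclei, and the CKO libraries held from 121 (CKO3) to 690 (CKO5). Their MG nuclei together carried 1511111 UMIs in WT and from 465916 (CKO2) to 3106418 (CKO5) UMIs in the CKO libraries. The median MG nucleus had 3171.5 UMIs in WT, and the library medians ran from 1824 (CKO6) to 8948 (CKO9). Libraries of the v5.0 kit were the deepest per nucleus. Of the barcodes, 10 occurred in more than 1 retina library, and 0 occurred as MG in more than 1.

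*Tgfbr1*, the targeted gene, had 106 normalized CPM in WT Müller glia, and 58.0, 81.6 and 96.5 (lowest, median, highest) in the 10 CKO libraries. Normalized CPM is the CPM of a gene in the summed MG nuclei of a library after TMM scaling of the library total. All 10 CKO libraries lay below WT, with a log2 fold change of −0.38 ± 0.22 (SE) and an adjusted p of 0.797 (edgeR, Benjamini-Hochberg), so no change in *Tgfbr1* passed the test. UMIs were not assigned to exons, and the endothelial recombination itself is not checked by Müller glia.

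Several libraries stood apart before any comparison. *Xist*, transcribed from the inactive X chromosome of females, had 7261 normalized CPM in WT, 6588 in CKO1, 6848 in CKO2 and 5555 in CKO7, and at most 1.4 in the other 7 CKO libraries. The Y-linked genes had the opposite pattern: *Uty* lay from 278 to 326 in those 7 libraries and at most at 2.9 in the rest, *Eif2s3y* from 241 to 408 against 0, *Ddx3y* from 84.1 to 104 against at most 8.7, and *Kdm5d* from 86.3 to 153 against at most 0.80. The WT library thus shared its sex-linked pattern with 3 CKO libraries only. The hemoglobin gene *Hbb-bs* had 0 UMIs in WT and 23.1, 71.0 and 683 normalized CPM in CKO, the highest value in CKO6. Only batch 1 held both genotypes, so values of CKO1, CKO2 and CKO3 are given for several of the genes described.

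The MG label was checked against its 5 markers. In MG nuclei *Rlbp1*, the retinaldehyde-binding protein, had 360 ± 34.2 CPM (SD, n = 11 libraries), against 4.09 in rods and 91.5 ± 51.3 in the 232 astrocyte nuclei, the next highest label. *Glul*, glutamine synthetase, had 987 ± 205 CPM against 19.1 in rods and 519 ± 156 in astrocytes. *Kcnj10*, the Kir4.1 potassium channel, had 63.1 ± 11.5 CPM against 0.461 in rods and 16.2 ± 28.2 in astrocytes. By the mean over libraries these 3 genes were highest in Müller glia among the 11 labels, although the *Kcnj10* spread in astrocytes was wide. In the WT library alone *Kcnj10* was higher in the 12 astrocyte nuclei (95.9 CPM) than in Müller glia (68.2 CPM). *Slc1a3*, the glutamate transporter GLAST, had 1328 ± 118 CPM in Müller glia and 2100 ± 492.5 in astrocytes. *Sox9*, a glial transcription factor, had 69.4 ± 23.8 and 122 ± 69.3. Those last genes therefore mark both glial types, with rods at 2.61 and 1.04 CPM.

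**Figure D1:**
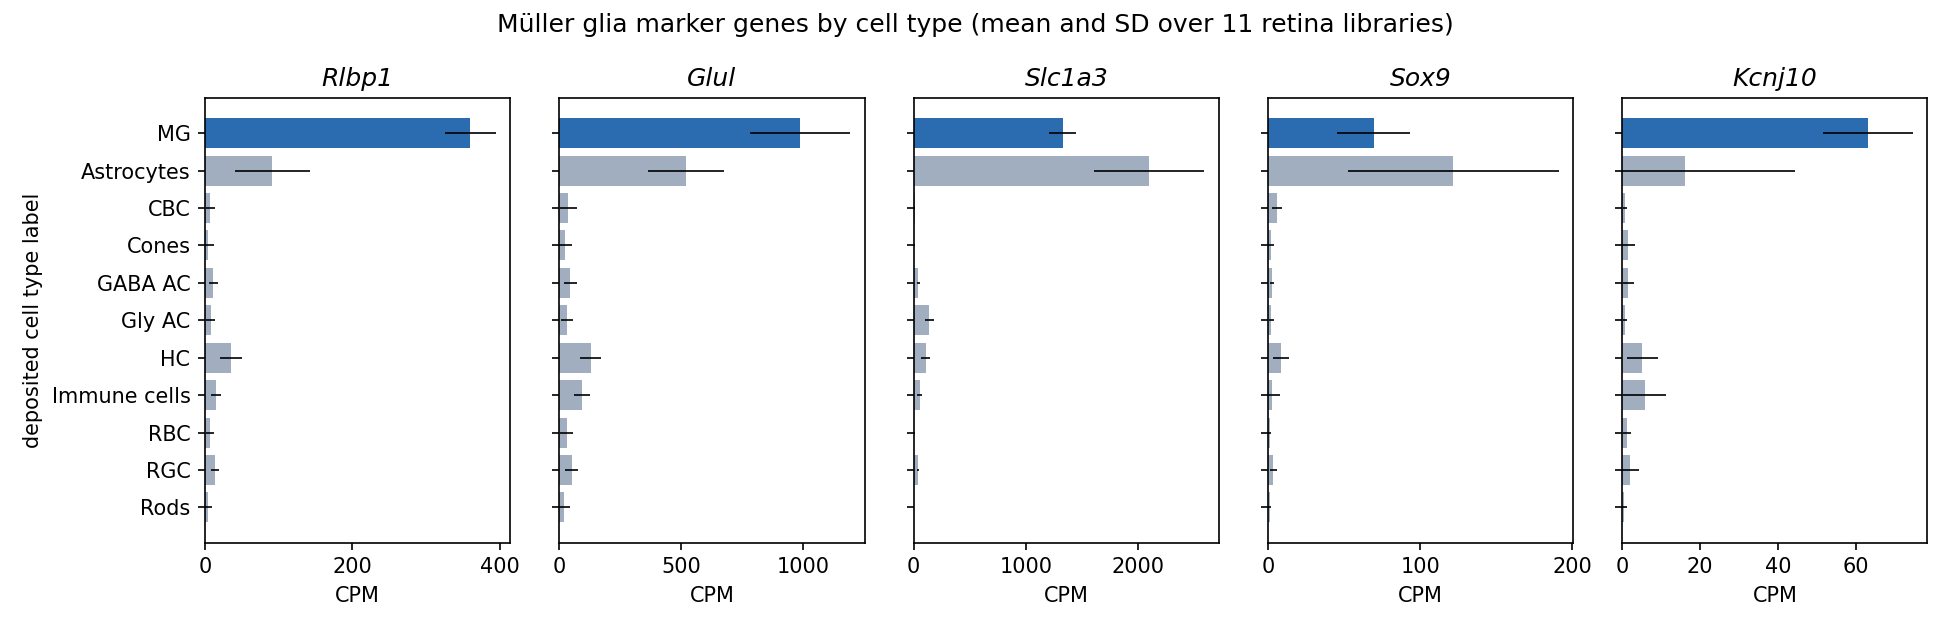
Levels of the 5 Müller glia markers in the 11 deposited cell type labels, as CPM of the UMIs of that label in a library, with bars for the mean and lines for the SD over 11 libraries. By the mean, Rlbp1, Glul and Kcnj10 were highest in MG (360, 987 and 63.1 CPM), whereas Slc1a3 and Sox9 were higher in astrocytes (2100 and 122 CPM).

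Among MG nuclei 96.0% had a UMI of at least 1 marker, 65.9% (2022 nuclei) of at least 3 and 6.55% of all 5, while 123 nuclei had none. The share with at least 3 markers ran from 38.7% to 88.0% between libraries, in CKO2 and CKO11. In other retinal nuclei it was 0.788%, and in rods 0.0683%. Nuclei with at least 1000 UMIs, 2616 of 3070 in Müller glia and 21752 of 41020 in rods, were thinned to that depth and the others left out, for all thinned shares below. Of these, 32.0% of MG nuclei had an *Rlbp1* UMI against 0.258% of rods, and 72.1% had an *Slc1a3* UMI against 0.151%. The median depth of all nuclei, thinned or not, was 3356.5 UMIs in Müller glia and 1064 in rods. Positions in GRCm39 were chr7:79024602-79038176 for *Rlbp1*, chr1:153775690-153785469 for *Glul*, chr15:8663604-8741595 for *Slc1a3*, chr11:112673009-112678586 for *Sox9* and chr1:172168765-172201652 for *Kcnj10*.

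Müller glia made up 3.49% of retinal nuclei in the WT library (402 nuclei, 95% exact binomial interval 3.16 to 3.84%) and 4.23% ± 0.832 (SD, n = 10) in CKO. The CKO libraries had 3.26% (lowest), 4.01% (median) and 5.42% (highest), and 8 of 10 lay above WT. The difference was within the spread of the CKO libraries (two-sided exact permutation p = 0.636, where 0.0909 is the smallest p this design allows). Within batch 1 the sign turned, with a CKO mean of 3.36% and a difference of −0.131 percentage points from WT. With 1 WT and 3 CKO libraries the smallest exact permutation p is 0.25, so a test there could not decide.

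The comparison of CKO with WT asked how Müller glia respond when the retinal vessels lack TGF-beta signaling. It tested 11220 genes with at least 10 UMIs in at least 3 libraries, and since CKO has 10 of the 11 libraries, a gene absent from WT could enter through CKO whereas a gene absent from CKO could not. Of these, 2 rose in CKO (0.0178% of genes tested) and 2 fell (0.0178%) at an adjusted p under 0.05. At an unadjusted p under 0.05 there were 838, of which 545 were higher and 293 lower in CKO. The lone WT library was assumed to vary as the CKO libraries do. As a second description, the WT library lay below all 10 CKO libraries for 872 genes (7.77%) and above all of them for 911 (8.12%). On plain CPM, the scale on which these counts were seen first, they were 1114 (9.93%) and 608 (5.42%).

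*Dpp6*, an auxiliary subunit of Kv4 potassium channels (chr5:27022201-27932503), rose. It had 23.1 normalized CPM in WT and 96.5, 181 and 272 (lowest, median, highest) in CKO, with 189, 172 and 155 in the batch 1 libraries CKO1, CKO2 and CKO3. All 10 CKO libraries were above WT, with CKO7 lowest, at a log2 fold change of 2.84 ± 0.45 (SE) and an adjusted p of 0.0433 (edgeR, Benjamini-Hochberg). *Robo1*, a receptor for Slit guidance proteins (chr16:72105194-72844378), rose from 33.9 to 87.0, 133 and 161, with 123, 143 and 122 in batch 1. Its groups did not overlap either, at a log2 fold change of 1.77 ± 0.29 and an adjusted p of 0.0461. In thinned nuclei a *Dpp6* UMI was found in 2.28% of WT and 14.2% ± 4.15 (SD, n = 10) of CKO Müller glia, against 0.0215% and 0.0200% of rods. For *Robo1* these shares were 2.49% and 11.0% ± 2.86 in Müller glia, and 0% and 0.00793% in rods. In all other retinal nuclei together *Dpp6* had 467 CPM in WT and a median of 525 in CKO, and *Robo1* had 674 and 505.

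These calls were at the edge of the threshold. The *Dpp6* call was lost without CKO1, CKO2, CKO3, CKO5, CKO8 or CKO9, and the *Robo1* call without any of these or without CKO10 or CKO11, with log2 fold changes from 2.76 to 2.96 and from 1.71 to 1.84 and adjusted p (edgeR, Benjamini-Hochberg) from 0.00462 to 0.100 and from 0.00762 to 0.116 when 1 CKO library was left out. Both calls were also lost without the kit term (adjusted p = 0.0629 for each), with the v4.0 PLUS libraries alone (0.0947 and 0.379), in nuclei with at least 3 markers (0.0937 and 0.0696), in the libraries with *Xist* and with limma, that of *Robo1* also with plain library sizes (0.0599) and in nuclei with at least 1000 UMIs (0.0518), and both held in batch 1 alone (0.00336 and 0.0280), with batch and kit in the model (0.0307 and 0.00168) and with DESeq2. Apart from limma, which is on a compressed scale, the log2 fold changes stayed near those of all libraries where the calls were lost, at 2.99, 2.86, 3.04 and 2.70 for *Dpp6* and 1.91, 1.79, 1.78 and 1.76 for *Robo1* (without the kit term, with the v4.0 PLUS libraries, with at least 3 markers and with *Xist*). *Nebl*, which encodes the actin-binding protein nebulette, was chosen here after its values were seen. It had 3.60 normalized CPM in WT (5 UMIs) and 39.1, 98.0 and 167 in CKO, with all 10 libraries above WT, and missed the threshold (log2 fold change 4.84 ± 0.86, adjusted p = 0.0691, edgeR, Benjamini-Hochberg). It was called in batch 1 alone (adjusted p = 0.0127), with DESeq2, with no minimum count and without CKO7.

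*Gm17167*, a long noncoding RNA (chr4:42206998-42235313), fell. It had 285 normalized CPM in WT and 31.3, 39.7 and 54.4 in CKO, at a log2 fold change of −2.80 ± 0.20 (SE) and an adjusted p of 1.97e-06 (edgeR, Benjamini-Hochberg), and was lower in 10 of 10 libraries. *Zfp951*, a zinc finger protein gene (chr5:104960515-105008190), fell from 74.97 to 6.21, 18.3 and 32.9 (log2 fold change −2.40 ± 0.33, adjusted p = 0.0119), again in 10 of 10 libraries. In all other nuclei of the same libraries the log2 fold change was also negative, −2.10 for *Gm17167* and −1.05 for *Zfp951*, and the test of the difference gave adjusted p of 0.405 and 0.456 (edgeR, Benjamini-Hochberg). In batch 1 alone the log2 fold change of *Gm17167* was −2.69, and *Zfp951* was not among the genes tested there. *Gm17167* lies 5.12 Mb from *Tgfbr1* (chr4:47353134-47414931) on the same chromosome. Both calls held without each CKO library in turn, but in the 3 CKO libraries with *Xist*, an alternative chosen after seeing the data, edgeR called 0 of 8221 genes (313 at an unadjusted p under 0.05) and *Gm17167* had an adjusted p of 0.202 (edgeR, Benjamini-Hochberg) at a log2 fold change of −2.78, close to that of all libraries. Without the kit term the *Zfp951* call was lost (log2 fold change −2.01, adjusted p = 0.140), as it was with the v4.0 PLUS libraries alone (−2.39, adjusted p = 0.0954), and DESeq2 gave it no adjusted p.

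The identity genes showed no called change. *Rlbp1* had 439 normalized CPM in WT and 309, 351 and 435 in CKO, and *Glul* had 1057 in WT and 572, 999 and 1361. *Slc1a3* had 1450 and 1130, 1336 and 1738, and *Kcnj10* had 74.2 and 52.1, 61.7 and 93.9. *Sox9* had 51.2 in WT and 39.3, 69.1 and 134 in CKO. WT lay within the CKO range for 4 of these 5 genes. For *Rlbp1* it lay just above the highest CKO library, but within the range on plain CPM. The log2 fold changes were −0.20 ± 0.16 (*Rlbp1*), −0.09 ± 0.29 (*Glul*), −0.01 ± 0.17 (*Slc1a3*), 0.72 ± 0.42 (*Sox9*) and −0.18 ± 0.28 (*Kcnj10*), with adjusted p of at least 0.801 (edgeR, Benjamini-Hochberg). Those of *Glul* and *Slc1a3* were near 0 and changed sign under some settings, *Slc1a3* with plain library sizes (0.02) among them.

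Of the 423 genes on 17 lists, 308 were tested, and 0 passed an adjusted p under 0.05 in edgeR, with 65 at an unadjusted p under 0.05 and 6 called by DESeq2 (*Aldoa*, *Osmr*, *A2m*, *Gpi1*, *Fn1* and *Crym*), beside 838 and 28 of all 11220 genes. Each list is therefore given by its counts and median, beside a median log2 fold change of 0.02 over all genes tested. Members named for lying outside the CKO range were chosen after their values were seen.

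Among retinoid handling genes 6 of 9 were tested, 2 of them with a positive log2 fold change, with a median log2 fold change of −0.17. WT lay below all CKO libraries for 0 (0%, beside 7.77% of all genes) and above for 1, *Rlbp1* (16.7%, beside 8.12% of all genes). *Rdh10*, a retinol dehydrogenase, had a WT value of 195 normalized CPM inside a CKO range of 145 to 266. Of the glutamate and ion homeostasis genes 17 of 20 were tested (6 positive, median −0.09, in batch 1 alone −0.29). WT lay below for 2 (11.8%, beside 7.77%) and above for 1 (5.88%, beside 8.12%). Among members with at least 10 UMIs in WT, it lay below for 1 of 16 (6.25%, beside 6.04% of all such genes). The sodium bicarbonate cotransporter *Slc4a4* had 38.9 in WT and 55.9, 75.5 and 101 in CKO, and the anion exchanger *Slc4a3*, which entered the test through CKO, had 5.05 (7 UMIs) and 8.26, 15.7 and 27.2. *Aqp4*, the water channel of glial endfeet, had 113 in WT within a CKO range of 77.1 to 159, and *Dmd*, the dystrophin that anchors the channel complex, had 3853 within 2459 to 4500. In thinned nuclei, however, a *Dmd* UMI was found in 61.2% of WT and 60.8% of CKO Müller glia, against 99.99% and 99.96% of rods. Whether the *Dmd* UMIs in MG nuclei came from Müller glia was not tested.

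Among 18 of 20 Müller glia transcription factors the median was −0.06 (in batch 1 alone −0.20, without CKO5 −0.13, without CKO1 −0.03). WT lay below all CKO libraries for 1 (5.56%, beside 7.77% of all genes), *Sox2* (18.0 against 20.4, 40.0 and 51.5). For 4 WT lay above (22.2%, beside 8.12% of all genes). On plain CPM the latter count was 2. These 4 were *Hes1*, *Tcf7l2*, *Rax* and *Six6*. *Hes1*, a Notch effector, had 1029 normalized CPM in WT and 236, 584 and 895 in CKO, and it followed the kit: the v5.0 libraries lay from 236 to 358. With the kit in the model its log2 fold change was −0.44 ± 0.24 (adjusted p = 0.775, edgeR, Benjamini-Hochberg). *Rax*, a retinal homeobox gene, had 273.9 in WT against a CKO maximum of 273.8. The abundant factors *Nfia*, *Nfib* and *Pax6* had 1182, 1033 and 908 in WT, each inside the CKO range.

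Of the secreted and surface proteins of Müller glia 23 of 25 were tested (median −0.05). WT lay above all CKO libraries for 6 (26.1%, beside 8.12% of all genes; 3 on plain CPM) and below for 3. *Col23a1*, a transmembrane collagen, had 1207 normalized CPM in WT and 599, 755 and 956 in CKO, with 599, 685 and 702 in batch 1 (log2 fold change −0.66 ± 0.20, adjusted p = 0.389, edgeR, Benjamini-Hochberg). *Spon1*, the matrix protein spondin, had 1151 and 750.5, 904 and 1012. *Crb1*, the apical polarity protein whose loss causes retinal dystrophy, had 1308 in WT against 951, 1077 and 1261. On the other side stood *Crym*, which binds thyroid hormone, at 292 in WT and 374, 452 and 652 in CKO (0.91 ± 0.24, adjusted p = 0.328, edgeR, Benjamini-Hochberg; called by DESeq2). The cadherin *Cdh2* had 1841 within a CKO range of 1618 to 2024.

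The gliosis list stood furthest on 1 side among the 17 lists. Of its 36 members 27 were tested, 25 had a positive log2 fold change (5833 of all 11220 genes did), and the median was 1.29. WT lay below all CKO libraries for 12 (44.4%, beside 7.77% of all genes) and above for 0, on both scales. The 12 include *A2m*, *C4b* and *Anxa2*, with fewer than 10 UMIs in WT, which entered the test through CKO. Among genes with at least 10 UMIs in WT, a split made after the values were seen, WT lay below all CKO libraries for 9 of 18 gliosis members (50%), beside 614 of 10165 genes (6.04%). None passed the adjusted threshold in edgeR, 17 had an unadjusted p under 0.05 (838 of all 11220 genes did), and DESeq2 called *Osmr* and *A2m*.

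The intermediate filament gene *Gfap* had 12.98 normalized CPM in WT and 24.8, 36.6 and 104 in CKO, with 45.6, 93.0 and 24.8 in batch 1. All CKO libraries were above WT, CKO5 and CKO2 most, at a log2 fold change of 2.18 ± 0.69 (adjusted p = 0.44, edgeR, Benjamini-Hochberg). The WT level rested on 18 UMIs in 2 of 402 nuclei. After thinning, 0.527% of WT and 3.96% ± 2.28 (SD, n = 10) of CKO Müller glia had a *Gfap* UMI, with 0% and 0.0545% in rods. *Gfap* also marks astrocytes, and the 9 astrocyte markers summed to 51.2 normalized CPM in WT MG nuclei and to between 78.0 and 175 in CKO, *Gfap* being the most abundant. Of these markers *Pax2* had 0 UMIs in WT and at most 3 in any CKO library, whereas *Aldh1l1* had WT below all CKO libraries. Whether the *Gfap* UMIs in MG nuclei came from astrocytes was not tested. *Vim*, vimentin, had 51.9 in WT and 63.9, 115 and 179 in CKO (1.14 ± 0.47, adjusted p = 0.594), and its thinned share was 5.04% in WT and 10.7% ± 3.58 in CKO, with 0.0128% and 0.222% in rods.

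Among the other members with WT below all CKO libraries, *Osmr*, the oncostatin M receptor, had 23.8 normalized CPM in WT and 49.7, 105 and 132 in CKO, with 92.7, 83.9 and 49.7 in batch 1 (log2 fold change 1.92 ± 0.44, adjusted p = 0.328, edgeR, Benjamini-Hochberg). Its thinned share was 2.14% in WT and 9.87% ± 2.90 in CKO, with 0% and 0.0107% in rods, so the Müller glia shares lay above those of rods. Astrocytes were as high or higher over all libraries, with 9.90% of thinned nuclei for *Osmr* (Müller glia 9.24%), 14.4% for *Cd44* (11.8%) and 30.5% for *Vim* (10.9%), and horizontal cells had 28.5% for *Vim*. *Cd44*, the hyaluronan receptor, had 75.7 in WT and 87.4, 145 and 182 in CKO, and was found in 6.80% and 12.3% ± 3.33 of thinned nuclei. *Stat3*, a transcription factor downstream of cytokine receptors such as the oncostatin M receptor, had 71.4 in WT and 108, 147 and 236 in CKO (1.29 ± 0.36, adjusted p = 0.329, edgeR, Benjamini-Hochberg). Its thinned share in rods, 5.80% in WT and 17.4% in CKO, was close to that in Müller glia, 6.496% and 13.6% ± 3.07, and whether its UMIs in MG nuclei came from Müller glia was not tested.

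Of the acute phase members, *A2m* and *C4b* had few UMIs in WT and entered the test through CKO. *A2m*, the protease inhibitor alpha-2-macroglobulin, had 5.05 normalized CPM in WT (7 UMIs) and 19.6, 47.9 and 112 in CKO, with 53.5, 56.7 and 49.7 in batch 1, and *C4b*, a complement component, had 2.16 (3 UMIs) and 7.83, 26.5 and 39.9. The log2 fold changes were 3.72 ± 0.87 and 3.61 ± 0.84, with an adjusted p of 0.328 for each (edgeR, Benjamini-Hochberg). *Cp*, the ferroxidase ceruloplasmin, had 1128 in WT and 1145, 1375 and 2168 in CKO. These genes were on one side of WT in 10 of 10 libraries, but with no replicate of WT that position rests on 1 library.

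**Figure D2:**
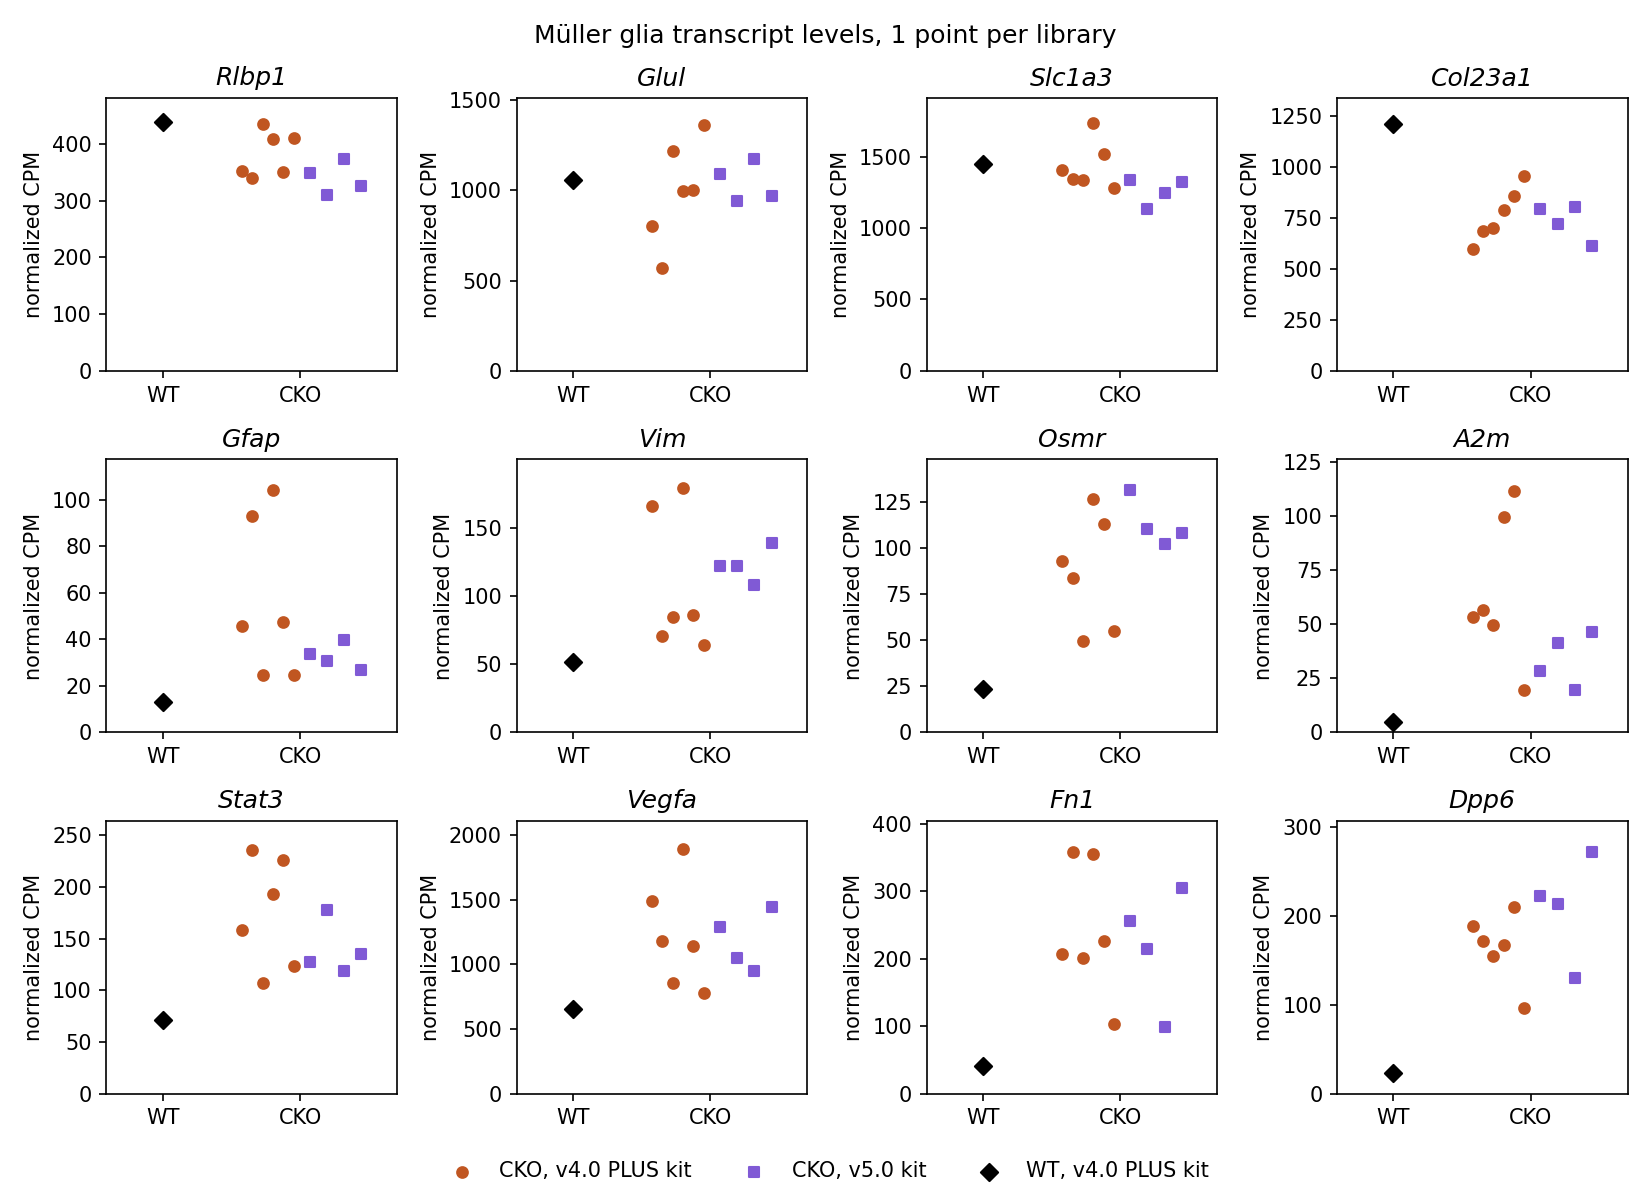
Levels of 12 genes in Müller glia, as normalized CPM with 1 point per library and shapes for genotype and kit. WT (diamond) lay inside the CKO points for Glul and Slc1a3, above all of them for Rlbp1 and Col23a1 and below all of them for the other 8 genes, such as Gfap (12.98 against 24.8 to 104) and Vegfa (652 against 777 to 1890).

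Of the 33 hypoxia and glycolysis genes 31 were tested, 27 had a positive log2 fold change, and the median was 0.61. WT lay below all CKO libraries for 11 (35.5%, beside 7.77% of all genes, and 13 on plain CPM). It lay above for 1, *Rora* (3.23%, beside 8.12% of all genes). The 11 include *Egln3* and *Ankrd37*, with fewer than 10 UMIs in WT; among members with at least 10 it was 9 of 28 (32.1%, beside 6.04%). Again 0 passed in edgeR, with 14 at an unadjusted p under 0.05, and DESeq2 called *Aldoa* and *Gpi1*, beside 838 and 28 of all 11220 genes. *Vegfa*, the angiogenic factor that Müller glia release, had 652 normalized CPM in WT and 777, 1160 and 1890 in CKO, with 1487, 1180 and 859 in batch 1 (log2 fold change 0.91 ± 0.37, adjusted p = 0.579, edgeR, Benjamini-Hochberg). CKO5 was highest and CKO7 lowest. A *Vegfa* UMI was found in 44.7% of thinned WT and 64.8% ± 10.6 (SD, n = 10) of thinned CKO Müller glia, against 0.0252% and 0.235% of rods. *Egln3*, a prolyl hydroxylase that HIF induces, had 1 UMI in WT (0.721 normalized CPM) and 1.59, 6.26 and 16.5 normalized CPM in CKO. *P4ha2*, a collagen prolyl hydroxylase, had 10.8 and 12.4, 25.4 and 46.8.

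Of the glycolytic enzymes *Aldoa*, *Gpi1*, *Ldha*, *Pkm*, *Hk1* and *Pgk1* had WT below all CKO libraries, with UMIs in many rods too. *Aldoa*, an aldolase, had 15.9 normalized CPM in WT and 39.1, 82.8 and 107 in CKO, with 85.5, 90.7 and 97.3 in batch 1 (log2 fold change 2.22 ± 0.42, adjusted p = 0.13, edgeR, Benjamini-Hochberg). Its adjusted p was 0.00887 with batch and kit in the model, 0.0207 in batch 1 alone, 0.00658 without CKO7 and 0.463 with the v4.0 PLUS libraries alone, at log2 fold changes of 2.50, 2.47, 2.34 and 2.24. *Ldha*, lactate dehydrogenase, had 94.4 in WT and 137, 167 and 248 in CKO, and *Pgk1*, phosphoglycerate kinase, had 33.9 and 40.4, 84.7 and 115. In thinned nuclei, however, the shares with an *Aldoa* UMI were 0.880% in WT and 5.89% ± 2.54 in CKO Müller glia, against 1.41% and 6.11% in rods. For *Ldha* the Müller glia shares of 5.91% and 12.5% ± 3.87 lay below the 20.7% and 24.8% of rods, as did those of *Pkm* (10.7% in CKO against 24.8%) and *Hk1* (7.50% against 23.1%), while *Pgk1* (6.79% against 7.38%) and *Gpi1* (9.43% against 9.69%) were near the rod shares. Whether these UMIs came from Müller glia was not tested. *Eno1* had 492 within a CKO range of 351 to 809.

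Because these genes are known targets of hypoxia-inducible factor, whose binding core holds the letters ACGTG, the RefSeq promoter windows (250 bases before each start, GRCm38.p6) were searched for ACGTG on either strand. It occurred in 20 of 42 windows (47.6%) of 28 matched list members, in 9 of 16 (56.2%) of the 10 matched members with WT below all CKO libraries (those with few WT UMIs included), and in 5444 of all 32851 windows (16.6%). A match describes letters and not a bound site. The 10 members were picked by their values in these data, and the 32851 windows belong to 27025 genes, many of them not among those tested. Regulation by the factor was not tested. Windows of 29 bases are shown for the 6 enzymes of that position with a match, 5′ to 3′ on the gene's strand with a match in capitals, which reads CACGT where it was found on the opposite strand. In *Ldha* the next base is g, so the motif lies there on both strands.
*Ldha*, chr7:46845647-46845675, plus strand: ggtgtcgcagcaCACGTggagccactctt
*Aldoa*, chr7:126799364-126799392, minus strand: tgtggctcgagtCACGTcctagcggggcg
*Pkm*, chr9:59657140-59657168, plus strand: ctccgatccggtCACGTccgcgccgcagc
*P4ha2*, chr11:54100834-54100862, plus strand: tgtgcatcgcatACGTGcagcgcgtggcg
*Egln3*, chr12:54204087-54204115, minus strand: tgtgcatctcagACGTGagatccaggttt
*Pgk1*, chrX:106186938-106186966, plus strand: gcgtcgtgcaggACGTGacaaatggaagt

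Immediate early genes, which respond within minutes to stimuli, had 13 of 28 members tested, 12 of them with a positive log2 fold change, and a median of 1.05. WT lay below all CKO libraries for 3 (23.1%, beside 7.77% of all genes) and above for 0, but all 3 (*Fos*, *Nr4a1* and *Fosl2*) had fewer than 10 UMIs in WT and entered the test through CKO, so their position is partly set by the filter. Among the 7 members with at least 10 it was 0. *Fos* had 1 UMI in WT (0.721 normalized CPM) and 2.61, 22.4 and 41.7 normalized CPM in CKO. *Nr4a1* had 2.88 and 7.83, 14.8 and 55.7, and its thinned share in rods (1.34% and 3.76%) exceeded that in Müller glia (0.107% and 1.55% ± 1.06). The more abundant members *Btg2*, *Ier3* and *Jun* had WT values of 69.9, 25.2 and 27.4 within the CKO range. Their thinned shares in WT were 4.51%, 1.43% and 2.20% in Müller glia against 13.5%, 5.68% and 1.14% in rods.

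In 2 other stress lists WT lay below all CKO libraries for fewer members, although most log2 fold changes were positive. Heat shock, unfolded protein and integrated stress response genes (20 of 30 tested, 16 positive) had a median of 0.27 (0.50 in batch 1 alone, 0.44 with batch and kit). For 1 of these genes WT lay below all CKO libraries, the cochaperone *Bag3* (16.6 normalized CPM against 19.4, 31.6 and 63.4), and for 0 above. Their abundant members *Hspa4l*, *Hsp90aa1* and *Hsp90b1* had WT values of 190, 128 and 159 inside the CKO range. Antioxidant genes (15 of 18 tested, 13 positive) had a median of 0.35 and WT below for 1, the malic enzyme gene *Me1* (45.4 against 48.3, 73.2 and 101). *Prdx1* and *Gclm* had 46.1 and 51.9 in WT, inside the CKO range. In thinned WT nuclei *Me1* was more frequent in rods (9.27%) than in Müller glia (3.23%). *Prdx1* (0.413% against 4.15%) and *Gclm* (0.326% against 5.11%) were less frequent in rods. These lists, at 5% and 6.67% below, were near the 7.77% of all genes.

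Interferon and antigen presentation genes (17 of 34 tested) had a median of 0.69, with WT below all CKO libraries for 3 (17.6%, beside 7.77%) and above for 0. Of the 3, *Ifi27* had fewer than 10 UMIs in WT, and among members with at least 10 it was 2 of 12 (16.7%, beside 6.04%). The median was 1.19 with filterByExpr. *H2-K1*, a class I histocompatibility heavy chain, had 7.21 normalized CPM in WT and 12.9, 25.97 and 43.0 in CKO (log2 fold change 2.11 ± 0.61, adjusted p = 0.346, edgeR, Benjamini-Hochberg). *Rnf213* and *Stat2* had 31.7 and 37.5 in WT within the CKO range. The 10 microglia and macrophage markers summed to 33.9 in WT MG nuclei and to between 23.3 and 51.7 in CKO, with *P2ry12* most abundant, so that sum did not separate the genotypes. NF-kB and cytokine genes (14 of 25) had a median of 0.36 (0.90 with filterByExpr). WT lay below for 1 (7.14%, beside 7.77%), the interleukin-1 receptor *Il1r1* (6.49 against 7.83, 33.1 and 44.6). *Il1r1* had 9 UMIs in WT, so that it entered the test through CKO. WT lay above for 1 (7.14%, beside 8.12% of all genes), *Vcam1* (85.8 against 31.2, 46.1 and 69.5). *Nfkb1*, *Il33* and *Nfkbiz* had 148, 226 and 53.3 in WT within the CKO range.

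Within the TGF-beta pathway and its targets 27 of 33 genes were tested, with a median of 0.19 (0.0310 with batch and kit, 0.0550 in batch 1 alone, 0.122 without CKO5). WT lay below all CKO libraries for 2 (7.41%, beside 7.77% of all genes) and above for 4 (14.8%, beside 8.12%). On plain CPM these counts were 4 below and 2 above, and all genes moved the same way, to 9.93% below and 5.42% above. *Itgb8*, the integrin subunit that activates latent TGF-beta, had 87.9 normalized CPM in WT and 100.5, 195 and 236 in CKO (log2 fold change 0.89 ± 0.33, adjusted p = 0.524, edgeR, Benjamini-Hochberg). The ligand *Tgfb2* had 628 in WT within 525.7, 721 and 1004. *Id3*, a target of BMP signaling, had 95.2 in WT against 26.1, 54.3 and 75.3, and *Id2*, its relative, had 81.5 against 27.2, 50.0 and 80.7. *Bmpr1b* and *Itgav* had 407 and 265 in WT within the CKO range. Canonical members of the pathway in Müller glia thus lay on either side of WT.

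YAP and TEAD targets (16 of 17 tested) had a median of 0.19, with WT below all CKO libraries for 5 (31.2%, beside 7.77% of all genes) and above for 0. Of these, *Ccn1* and *Ccn2* had fewer than 10 UMIs in WT, and among members with at least 10 it was 3 of 14 (21.4%, beside 6.04%). Within batch 1 the median was −0.10, and without CKO5 0.0833. The matricellular gene *Ccn1* had 3 UMIs in WT (2.16 normalized CPM) and 15.7, 19.3 and 22.2 normalized CPM in CKO (log2 fold change 3.11 ± 0.54, adjusted p = 0.0667, edgeR, Benjamini-Hochberg). Its relative *Ccn2* had 5.05 and 5.22, 16.1 and 20.7. The abundant members *Crim1* and *Tead1* had 605 and 266 in WT within the CKO range.

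Among the angiogenic and neurotrophic factors 17 of 30 were tested (median 0.37, without CKO5 0.0813 and without CKO1 0.227), with WT below for *Vegfa* and *Angpt1* (11.8%, beside 7.77%) and above for *Wnt5a*, *Vegfb* and *Fgf1* (17.6%, beside 8.12%). *Angpt1*, the Tie2 ligand, had 0 UMIs in WT and 2.48, 8.08 and 20.4 normalized CPM in CKO, so it entered the test through CKO. Among members with at least 10 UMIs in WT, WT lay below for 1 of 13 (7.69%, beside 6.04% of all such genes). *Sema3e* and *Lrp6* had 333 and 141 in WT within the CKO range. Progenitor and cell cycle genes (12 of 24 tested) had a median of 0.69 (in batch 1 alone 0.39), with WT below for 4 (33.3%, beside 7.77%) and above for 0. These 4 had fewer than 10 UMIs in WT and entered the test through CKO, so their position is partly set by the filter. Among the 7 members with at least 10 it was 0. *Neurog2*, a proneural factor, had 6.49 (9 UMIs) in WT and 10.3, 30.3 and 60.6 in CKO, and *Ccnd2*, a cyclin, had 4.33 (6 UMIs) and 15.1, 20.9 and 84.4. *Cdkn1a*, the p21 inhibitor of the cell cycle, had 0 UMIs in WT and up to 17.7 normalized CPM in CKO. *Btg2*, *Cdkn1b* and *Ccnd3*, the abundant members, had WT values within the CKO range.

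Cholesterol and lipid synthesis genes (21 of 24 tested) had a median of 0.07 (0.21 in batch 1 alone, −0.00943 with filterByExpr, 0.00606 without CKO11, 0.00683 without CKO9). For 2 of these genes WT lay below all CKO libraries (9.52%, beside 7.77% of all genes) and for 0 above. Their abundant members *Acaca*, *Abca1* and *Scd2* had 173, 98.0 and 74.97 normalized CPM in WT within the CKO range. Matrix and adhesion genes (22 of 26) had a median of 0.14 (0.0406 without CKO5, −0.14 in the *Xist* libraries). WT lay below for 2 (9.09%, beside 7.77% of all genes) and above for 2 (9.09%, beside 8.12%). Of the 2 below, *Tnc* had 3 UMIs in WT and entered the test through CKO. Among members with at least 10 it was 1 of 19 (5.26%, beside 6.04%). *Fn1*, fibronectin, had 41.8 in WT and 98.4, 220 and 358 in CKO, with 207, 358 and 201 in batch 1 (log2 fold change 2.53 ± 0.65, adjusted p = 0.328, edgeR, Benjamini-Hochberg; called by DESeq2). Its thinned share was 3.99% in WT and 18.3% ± 5.96 in CKO, with 0.00274% and 0.0194% in rods. *Lama2*, a laminin chain, had 177 in WT against 31.8, 67.7 and 145, and *Col4a3*, a basement membrane collagen, had 18.0 against 2.27, 5.09 and 11.7. *Col9a1* and *Col2a1* had 1613 and 393 within the CKO range.

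**Figure D3:**
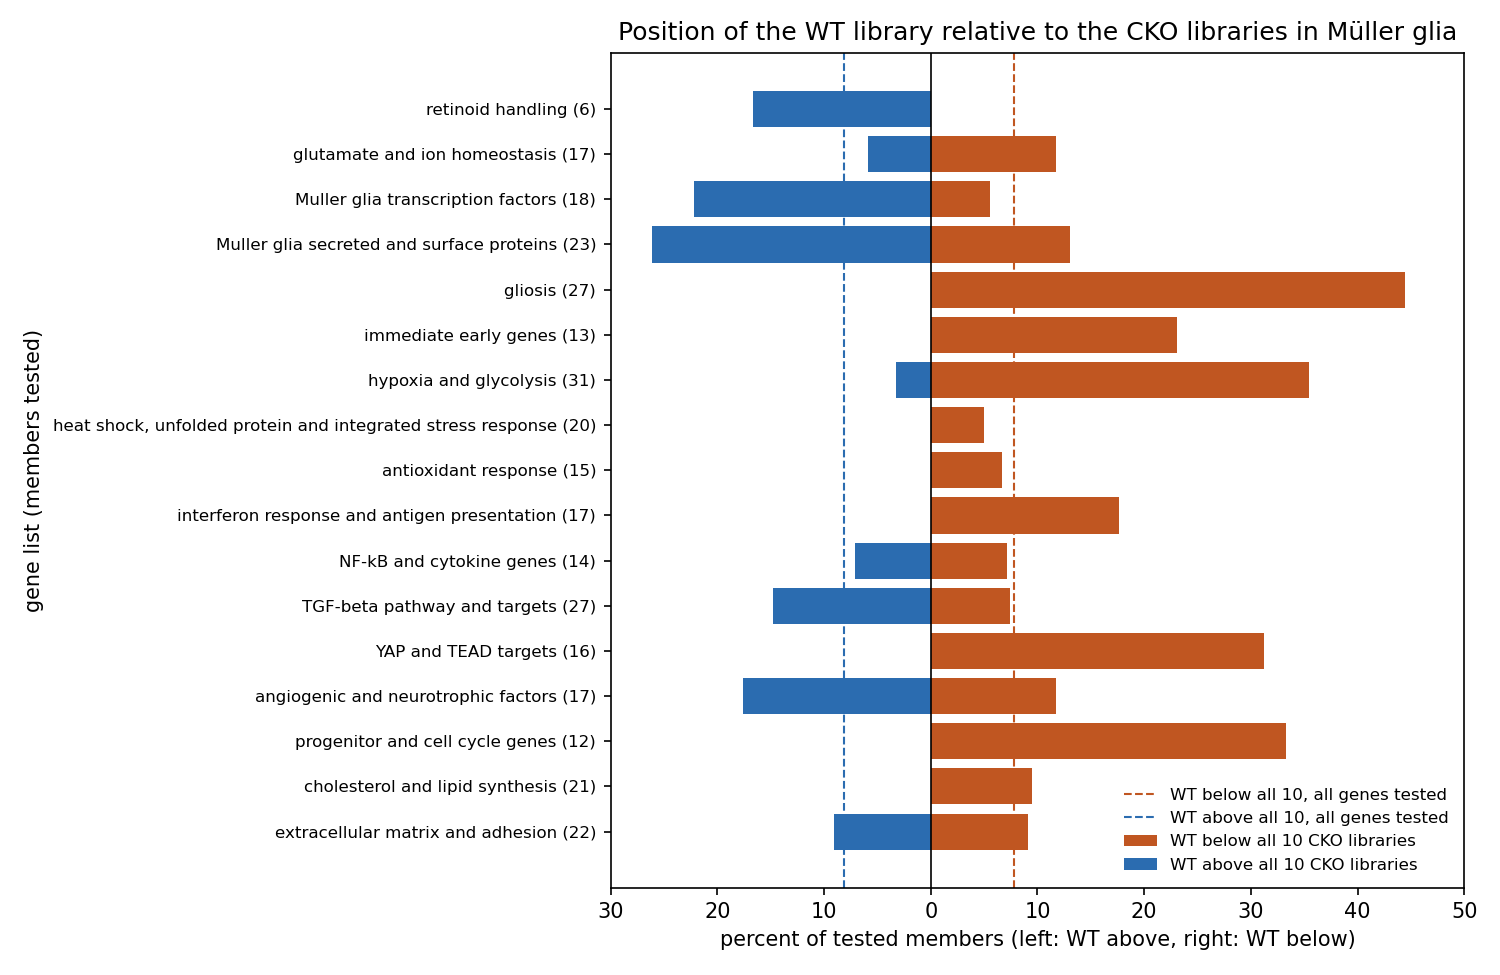
Percent of the tested members of each of 17 gene lists for which the WT library lay below (right) or above (left) all 10 CKO libraries in Müller glia, with dashed lines for all 11220 genes tested. Gliosis (44.4%) and hypoxia and glycolysis (35.5%) reached furthest to the right of the 7.77% line.

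Whether Müller glia differed from the rest of the retina was tested as an interaction of genotype with nucleus class, using all other nuclei of the same libraries. It called 0 of 11220 genes (0%) in edgeR, with 717 at an unadjusted p under 0.05, and DESeq2 was not run on it. Hence no change above is called particular to Müller glia in this test. The gliosis list had a median log2 fold change of 1.32 in the other nuclei and the hypoxia and glycolysis list 0.43, whereas all genes had 0.00. *Gfap* had a log2 fold change of 4.90 in the other nuclei, astrocytes included. *Nebl*, *Dpp6* and *Robo1*, for which the other nuclei gave 0.13, 0.24 and −0.22, had interaction adjusted p of 0.158, 0.183 and 0.298 (edgeR, Benjamini-Hochberg). *Nebl* and *Dpp6* were among the 3 genes that the interaction called with filterByExpr, the 3 without rods and the 5 without CKO7. Within batch 1 it called 50, with *Dpp6*, *Nebl*, *Robo1*, *Col23a1*, *Cp*, *Fn1* and *Aldoa* among them.

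Markers of other cells had UMIs in MG nuclei. The 10 rod markers, all detected in every library, summed to 7108 normalized CPM in WT and to between 4828 and 8214 in CKO, with *Sag* most abundant, against 23980 CPM in rods themselves. The 8 cone markers summed to 647 and 359 to 745 (*Cngb3* most abundant), the 8 rod bipolar markers to 557 and 490 to 681 (*Prkca*), the 8 cone bipolar markers to 107 and 113 to 328 (*Otx2*), and the 8 amacrine markers to 1118 and 763 to 1221 (*Pax6*, found in 57.6% of thinned WT MG nuclei against 0.00583% of rods). The 8 horizontal cell markers summed to 241 and 184 to 485 (*Prox1*, 191 of it in WT, found in 17.0% of thinned WT MG nuclei against 0.00620% of rods), with *Gja10* at 0 in all libraries, and the 9 ganglion cell markers to 39.6 and 14.3 to 62.1 (*Rbpms*). Of these neuronal sums only that of cone bipolar cells had WT below all CKO libraries.

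Among vascular and blood markers, the 9 endothelial markers summed to 1405 in WT and 1103 to 1928 in CKO (*Flt1*, 1006 of it in WT, found in 58.3% of thinned WT MG nuclei against 0.0182% of rods), the 8 pericyte markers to 80.7 and 36.7 to 128 (*Pdgfrb*), and the 8 pigment epithelium markers to 71.4 and 47.6 to 101 (*Mitf*). The 5 erythroid markers summed to 4.33 in WT and to between 47.0 (CKO7) and 1078 (CKO6) in CKO, with *Hbb-bs* most abundant. In CKO the medians of *Prox1*, *Pax6* and *Flt1* were 202, 730 and 815 normalized CPM, beside median horizontal, amacrine and endothelial sums of 372, 1031 and 1301. Other markers thus added to each sum, and whether these sums hold RNA of other cells was not tested. Erythroid, astrocyte and cone bipolar sums thus had WT below all 10 CKO libraries, as 12 gliosis and 11 hypoxia and glycolysis genes did, and their part in those results was not tested.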

How the data were processed

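The deposited values were UMI counts per gene and nucleus. Per their methods, the authors made them with PIPseeker 3.3.0 on GRCm39 (the submitters' notes name mm10), removed background with CellBender 0.3.2 and doublets with SOLO (scVI-tools 1.2.2), and labeled clusters in Seurat. By hand they also took out nuclei that looked mixed, and clusters that held multiple nuclei of CKO4 and CKO5. CKO5 may therefore have been filtered differently from the other libraries used. No further doublet step was applied here. Counts of MG nuclei were summed per library (465916 to 3106418 UMIs) and tested with edgeR 4.0.16 in R 4.3.3 (quasi-likelihood, TMM, kit as covariate, Benjamini-Hochberg, adjusted p under 0.05) on genes with at least 10 UMIs in at least 3 libraries that had UMIs in batches 1 and 3. DESeq2 1.42.0, limma 3.58.1 and other settings served as alternatives. Libraries were the replicates. Thinned shares are exact expectations at 1000 UMIs per nucleus; nuclei with fewer were left out of them (369 of 402 WT and 2247 of 2668 CKO MG nuclei remained). The code was tested on simulated data. Positions are from GENCODE and promoters from RefSeq.

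The members and lists were chosen with earlier results of these data known. Named by rule were the 5 markers, called genes, sex-linked genes, the 3 most abundant members of each list and the most abundant gene of each marker list. Other genes were named after their values were seen.

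Values of 2 genes on the gene lists are withheld and are not reported here; the counts and medians of the lists include them.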

Additional observations from a re-analysis of the deposited data

Results flagged for a closer look

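Among 134 values tested for a library far from the other CKO libraries of its group of 10, 7 stood out, and chance gives about 1 in 20. Those given here, 6 of the 7, are normalized CPM in Müller glia. CKO7 had 11.7 for *Col4a3* (next highest CKO library 6.21) and 240 for *Il33* (next 170). CKO6 had 683 for *Hbb-bs* (next 144) and 228 for *Mt2* (next 96.8). CKO2 had 27.2 for *Slc4a3* (next 18.2), and CKO5 had 1004 for *Tgfb2* (next 775).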

How the results depend on the processing

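With 1 WT library, every result rests on a control whose spread was not measured, and batch 2 and batch 3 hold CKO only. No paired analysis was possible because WT has 1 library and shares only replicate number 1 with CKO. Of 24 alternatives 1, the libraries with *Xist* above 1000 CPM, was chosen after seeing the data. Named genes kept their side of the threshold in 3036 cases, some uncalled ones near 0 with a change of sign, lost the call in 31 and gained it in 30, with 0 reversed.

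The number of genes called for CKO against WT, 4, was 28 with DESeq2, 37 with no minimum count, 1 without the kit term, 9 in batch 1 alone, 1 with the v4.0 PLUS kit alone, 2 in nuclei with at least 3 markers and 0 in the *Xist* libraries (313 at an unadjusted p under 0.05, edgeR), and 2 to 11 leaving out 1 CKO library. The interaction count, 0 in edgeR with 717 at an unadjusted p under 0.05, was 3 with filterByExpr, 3 without rods, 50 in batch 1 alone and 0 to 5 leaving out 1 CKO library. The difference in the share of Müller glia (0.740) was −0.131 in batch 1, 0.0979 in nuclei with at least 1000 UMIs, 0.486 with the v4.0 PLUS kit alone, 1.19 in nuclei with at least 3 markers and 0.608 to 0.849 leaving out 1 library. The cause of these shifts was not tested, apart from the fewer genes and libraries that some settings hold.

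Of 408 list medians under alternatives 379 moved by less than their spread. In batch 1 alone the medians were −0.29 (glutamate and ion), −0.20 (transcription factors), 0.0550 (TGF-beta), −0.0959 (YAP) and 0.39 (progenitor). With batch and kit they were −0.26 (glutamate and ion), 0.0310 (TGF-beta) and 0.45 (progenitor), and without the kit 0.46 (progenitor). With filterByExpr and with no minimum they were 1.19 and 1.43 (interferon) and 0.90 and 0.98 (NF-kB). The retinoid median was −0.0593 in nuclei with at least 3 markers, the matrix median −0.14 in the *Xist* libraries, and the angiogenic median 0.0813 (without CKO5) to 0.427 (without CKO7) leaving out 1 library. With limma on mean log2 values per nucleus, a compressed scale, medians were −0.0713 (retinoid), 0.0885 (gliosis), 0.0344 (immediate early), 0.0729 (hypoxia), 0.0166 (heat shock), 0.0134 (antioxidant), 0.0242 (interferon), 0.0190 (NF-kB), 0.00622 (TGF-beta), 0.0141 (YAP), 0.0116 (angiogenic), 0.0323 (progenitor) and −0.00252 (matrix). Without thinning, CKO exceeded WT in the percent of Müller glia with a UMI by 11.3 (*Gfap*), 20.2 (*Vim*), 20.6 (*Stat3*), 23.9 (*Osmr*), 14.1 (*Cd44*) and 8.23 (*Vegfa*).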
